A study of Mus musculus with 9 samples.

Results

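Type-1 and Naive-like γδ T cells were compared with each other, both taken from peripheral lymph nodes of C57BL/6 mice. The 6 arrays whose titles carry these subset names were used, 3 per subset, of 9 arrays in the series. The other 3 arrays hold γδ T cells from the intestinal epithelium (IELs), which entered the estimate of the spread and are otherwise given only as levels beside 2 genes. Whole-transcriptome expression was measured on Affymetrix Mouse Gene 2.0 ST arrays, and the series title asks which markers the subsets share and which are exclusive to 1 of them. The labels name no genetic change, treatment or age for any group. The lymph nodes were axillary, brachial and inguinal. The antibodies used for staining are listed in the labels, but the sources used here give neither the gates that separated Type-1 from Naive-like cells nor whether an array stands for 1 mouse or a pool. Arrays of a subset are titled as biological replicates, and a p-value reflects only how far such arrays spread.

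γδ T cells carry an antigen receptor of γ and δ chains and can acquire an effector programme while still in the thymus. Cells of the type 1 programme depend on the transcription factor T-bet, make interferon-γ, and often carry receptors first described on natural killer (NK) cells. In lymph nodes, cells with a naive phenotype recirculate and keep transcription factors and homing receptors of resting lymphocytes.

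Expression is given as the deposited log2 value (RMA, a method that corrects background, normalizes arrays to each other and summarizes the probes of a transcript), and a difference is Type-1 minus Naive-like on this log2 scale with its standard error, so that 1 is a 2-fold change. Means carry the SD over n = 3 arrays. A gene was called when its limma p-value, adjusted by Benjamini-Hochberg over all 22180 genes tested, was under 0.05. The table holds no detection calls, so how far a low value lies above background is unknown. In bulk samples such as these, fewer cells of a type and less RNA per cell cannot be told apart.

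The 3 Type-1 arrays were less alike than the 3 Naive-like arrays. Naive-like arrays correlated with each other at 0.967 to 0.977 over all genes, and Type-1 arrays at 0.947 to 0.959. Type-1 replicate 3 lay nearer to the Naive-like arrays, at 0.962 to 0.975, than to the other Type-1 arrays, at 0.951 and 0.959. Type-1 replicate 2 also correlated best with a Naive-like array, replicate 1, at 0.964, beside 0.947 and 0.959 with the other Type-1 arrays. For Type-1 replicate 1 the values were 0.943 to 0.950 with the Naive-like arrays and 0.947 and 0.951 with the other Type-1 arrays. Replicate 3 of every subset also carries a date code in its description, which the other arrays lack, and Type-1 replicate 3 correlated best with Naive-like replicate 3. The calls below were made with this array counted as Type-1, so its values in the called genes do not check its label. Without it, 12 of the 63 called genes described below lost their call: Anxa2, Btbd11, Cldnd1, Ddx43, Dennd4a, Eomes, Myo1f, Ncr1 and Spry2 among the higher genes, and Dntt, Iigp1 and U2af1 among the lower ones, with adjusted p from 0.051 to 0.10.

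The comparison called 63 genes, 0.284% of those tested, of which 47 were higher in Type-1 cells (0.212%) and 16 lower (0.0721%). All 63 differed at least 2-fold, and the smallest called difference was 1.18. Over all genes the median difference was 0.03, and the Type-1 arrays lay wholly above the Naive-like arrays in 6.33% of genes and wholly below in 5.11%. Without Type-1 replicate 3, 87 genes were called, 41 higher and 46 lower. Leaving out Naive-like replicate 3 reduced the calls to 34, with 29 genes higher and 5 lower. Within the 6 arrays without the date code 20 genes were called, and 20 of 20 kept their direction between the date-coded Type-1 and Naive-like arrays.

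**Figure D1:**
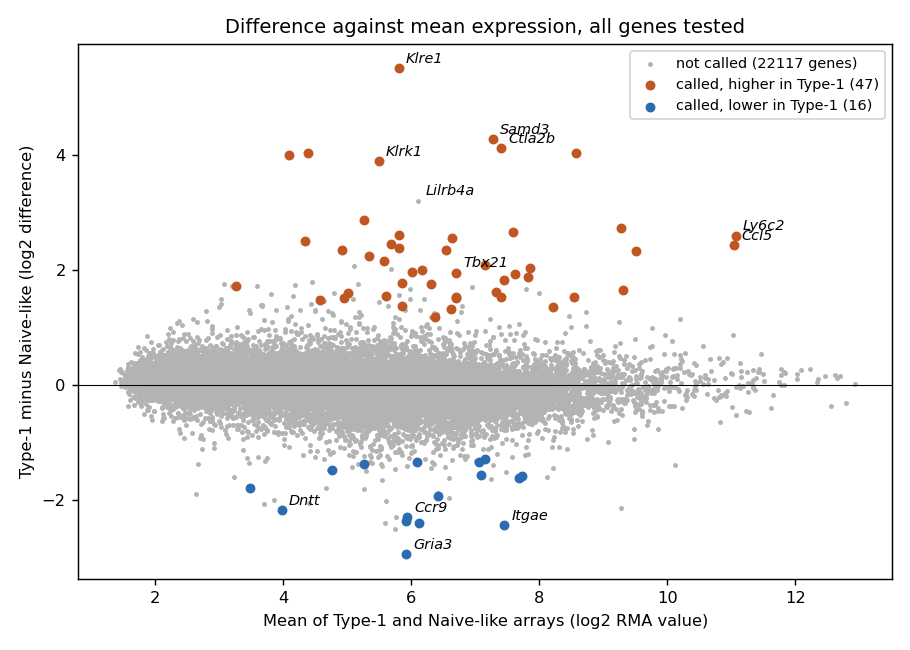
Difference between Type-1 and Naive-like cells (log2, y axis) against the mean of their 6 arrays (log2 RMA value, x axis) for all 22180 genes tested. Orange points are the 47 genes called higher and blue points the 16 called lower. The largest difference is that of Klre1, at 5.51, and Lilrb4a, at 3.20, lies among the called genes in size but was not called.

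Short promoter stretches of 4 called genes are shown first, because Tbx21, the gene of T-bet, was among the genes that were higher and an interferon-inducible gene, Igtp, was among those that were lower. RefSeq promoter windows of build GRCm38.p6, from 250 bases before to 50 bases after a gene's start, were found for 41 of the 47 higher genes, 12 of the 16 lower genes and 16990 of all genes tested. The letters AGGTGTGA, a core of the T-box motif that T-bet binds, occurred on either strand in windows of 2 of the 41 higher genes (4.88%), Pglyrp1 and Samd3, and of 1 of the 12 lower genes (8.33%), Trat1. They occurred in 1.34% of the 16990 genes with a window and in 1.28% of all 32851 windows. The stretches run 5′ to 3′ on the gene's strand, with the matched letters in capitals.

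Pglyrp1, chr7:18884585-18884644, plus strand: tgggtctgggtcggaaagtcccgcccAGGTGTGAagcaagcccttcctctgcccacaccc
Samd3, chr10:26229666-26229706, plus strand: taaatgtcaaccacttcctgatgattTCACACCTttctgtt
Trat1, chr16:48772260-48772312, minus strand: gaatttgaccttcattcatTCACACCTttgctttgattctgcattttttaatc

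In Samd3 and Trat1 the capitals are the same motif read on the opposite strand. Igtp held both interferon-related motifs searched, TTCNNNGAA (the GAS element bound by STAT proteins) and GAAANNGAAA (a core of sites for interferon regulatory factors), in 1 stretch, where they did not overlap.

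Igtp, chr11:58199485-58199555, plus strand: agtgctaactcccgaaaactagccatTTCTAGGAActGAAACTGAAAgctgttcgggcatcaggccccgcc

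TTCNNNGAA occurred in windows of 5 of the 41 higher genes (12.2%), among them Ifng and Gzmm, and of 1 of the 12 lower genes, against 9.15% of all genes with a window and 8.30% of all windows. GAAANNGAAA occurred in 1 higher gene, Eomes, and in Igtp, against 3.87% of all genes and 3.44% of all windows. A match describes these letters only and was not tested as a binding site.

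NK receptor genes were prominent among the large differences, with Klre1 the largest of all. Klre1, a lectin-like receptor of NK cells, stood at 2.75, 3.42 and 2.98 on the Naive-like arrays and at 8.51, 8.75 and 8.42 on the Type-1 arrays. Every Type-1 array was thus far above every Naive-like array, with a difference of 5.51 ± 0.34 (limma adjusted p = 1.9e-05). Klrk1, which encodes the activating receptor NKG2D, was 3.52, 3.56 and 3.55 in Naive-like cells against 8.14, 6.65 and 7.53 in Type-1 cells. The Naive-like values were nearly identical and the Type-1 values spread, and the difference was 3.89 ± 0.33 (adjusted p = 0.00015).

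Klrc2 and Klrc3, which encode NKG2C and NKG2E, behaved alike. Klrc2 was 2.66, 2.22 and 2.23 in Naive-like cells and 5.96, 6.37 and 6.86 in Type-1 cells, a difference of 4.03 ± 0.35. Klrc3 was 2.17, 2.10 and 2.01 against 6.41, 6.64 and 5.21, a difference of 3.99 ± 0.41. Their sequences are similar, so the share of each row's signal that comes from the other gene was not tested. Klrd1, which encodes CD94, the partner chain of the NKG2 receptors, was already at 8.49 ± 0.14 in Naive-like cells and reached 10.13 ± 0.25 in Type-1 cells, a difference of 1.64 ± 0.20. Klrc1, the inhibitory member NKG2A, had a mean of 6.13 ± 1.16 against 4.07 ± 0.29, with no overlap but an adjusted p of 0.15.

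Klra5, which encodes the receptor Ly49E, was 3.80, 4.00 and 3.68 in Naive-like cells and 7.92, 5.70 and 6.50 in Type-1 cells (2.88 ± 0.45, adjusted p = 0.015). Klrb1c, the gene of NK1.1, was 3.18, 3.09 and 2.99 against 4.73, 6.35 and 5.69 (2.50 ± 0.32). The Type-1 arrays were not ordered alike for these receptors: replicate 1 was the highest for Klra5 and Klrk1 and the lowest for Klrb1c and Ncr1. Ncr1, which encodes the activating receptor NKp46, rose by 2.24 ± 0.39, from 4.22 ± 0.27 to 6.46 ± 1.01. Cd244a (2B4, a SLAM family member) rose by 1.51 ± 0.23. Leaving out single arrays ended 3 of these calls. Klra5 was lost without any 1 of the Naive-like arrays, and Cd244a without Naive-like replicates 2 or 3 or Type-1 replicate 2, with adjusted p up to 0.10 and 0.070. Ncr1 was lost without any array other than Type-1 replicate 1, with adjusted p up to 0.19.

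Of 24 measured NK receptor genes of 32 listed, 9 were higher and none lower, beside 0.212% and 0.0721% of all genes, with a median difference of 1.48 beside 0.03 over all genes. The count lay between 6 and 10 when single arrays were left out, with 6 without Naive-like replicates 2 or 3, and was 4 among arrays lacking the date code. In 15 of the 24 the Type-1 arrays lay wholly above the Naive-like arrays, as in 6.33% of all genes. This list, like the other gene lists, was drawn up with earlier results of these data known, so its counts are not independent evidence. Members without a call included Klrg1 (-0.09), Klri1 (0.68), Klri2 (0.85) and Cd226 (-0.26). In chromosomal order the RefSeq table places 11 tested protein-coding genes from Klre1 to Klra5, and 6 of them were called, all higher. Such a run was chosen to start and end at a called gene, so its share cannot be set against that of all genes. Klrh1 and Klra17, which lie within the run, differed by 0.21 and 0.06.

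**Figure D2:**
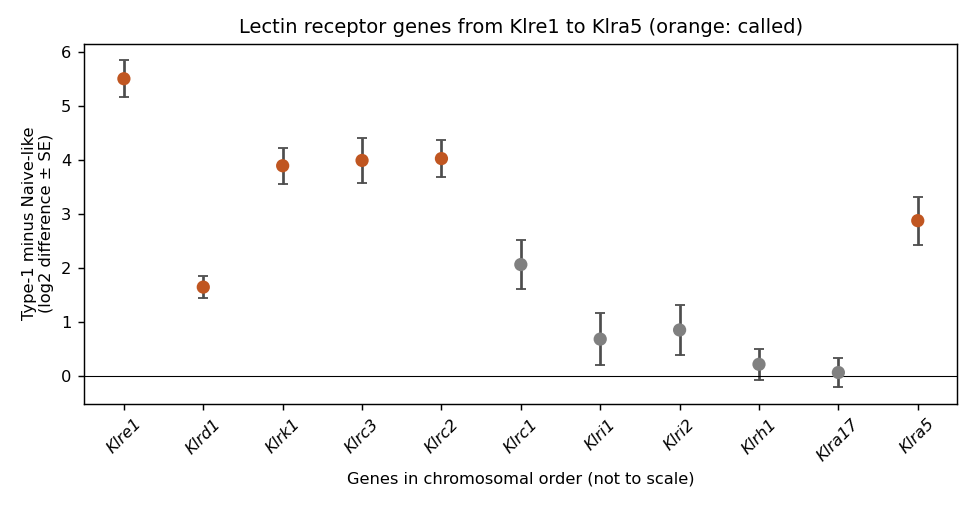
Differences between Type-1 and Naive-like cells (log2, ± SE, n = 3 arrays per subset) for the 11 tested genes of the lectin receptor run from Klre1 to Klra5, in chromosomal order and not to scale. The 6 orange genes were called, with differences between 1.64 and 5.51, while the grey genes from Klri1 to Klra17 lie between 0.06 and 0.85. Klrc1, also grey, lies at 2.06, above the called Klrd1 at 1.64.

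Of the adaptors that NK receptors signal through, Fcer1g and Tyrobp were higher. Fcer1g, the signalling chain shared by Fc receptors and NKp46, was 5.38 ± 0.77 in Naive-like and 7.72 ± 0.26 in Type-1 cells (2.34 ± 0.32), and Tyrobp, which encodes DAP12, was 5.04 ± 0.62 against 6.99 ± 0.25 (1.96 ± 0.33, adjusted p = 0.027). For both genes the Naive-like arrays were the more spread group, with Naive-like replicate 2 highest. Both are also expressed in myeloid cells, and 7 of 10 measured myeloid markers were highest on that same Naive-like array, among them Lyz2 at 3.92, 4.82 and 3.02. H2-Ab1, a class II histocompatibility gene of antigen-presenting cells, was 4.87, 7.97 and 4.97 on the Naive-like arrays. It was listed with the B cell markers, of which 5 of 10 measured were highest on Naive-like replicate 2. On the Type-1 arrays replicate 1 was highest for Lyz2, at 5.63, 3.96 and 4.71, and for H2-Ab1, at 7.06, 5.00 and 4.86. Fcer1g was instead highest on Type-1 replicate 3, at 7.52, 7.63 and 8.01, and Tyrobp on replicate 2, at 7.09, 7.18 and 6.71. The log2 of the summed myeloid level was 7.24 to 7.83 on the Naive-like and 7.36 to 7.89 on the Type-1 arrays, and its part in these results was not tested. Hcst, which encodes DAP10, the adaptor of NKG2D, stood at 10.44 ± 0.07 and 10.89 ± 0.18, a difference of 0.46 ± 0.24 that was not called. Slamf7, a SLAM family receptor of cytotoxic lymphocytes, was 6.31, 5.97 and 6.47 in Naive-like cells and 8.54, 9.08 and 9.12 in Type-1 cells, well apart at 2.67 ± 0.22. Of 17 measured genes for adaptors and SLAM signalling of 18 listed, these 3 were higher (0.212% over all genes) and none was lower, with a median of 0.16. Without Naive-like replicate 3 only Slamf7 passed, Fcer1g having an adjusted p of 0.055 there, and Tyrobp was also lost without Naive-like replicate 1, Type-1 replicates 1 or 2 or IELs replicate 2, with adjusted p up to 0.12.

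Among genes of the type 1 programme, Xcl1, a chemokine of activated cytotoxic cells, was 7.89, 7.63 and 8.22 in Naive-like cells and 10.95, 10.57 and 10.42 in Type-1 cells (2.73 ± 0.23). Ccl5, a chemokine of effector T cells, rose from 9.83 ± 0.07 to 12.26 ± 0.15 (2.43 ± 0.19, adjusted p = 8.3e-05). Ifng, the gene of interferon-γ, rose from 4.62 ± 0.10 to 7.00 ± 0.54 (2.38 ± 0.28, adjusted p = 0.0023). These 3 secreted products were separated between the subsets on every array, and Ccl5 was already far above the median of all genes (4.52) in Naive-like cells.

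The cytokine receptor chain Il18rap, needed for the response to interleukin 18, was 4.51, 4.39 and 4.63 in Naive-like cells and 6.73, 6.53 and 8.08 in Type-1 cells (2.60 ± 0.33). Its partner Il18r1 differed by 1.67 ± 0.31 with no overlap, at an adjusted p of 0.055. Il2rb, the chain shared by the receptors for interleukins 2 and 15, rose from 8.35 ± 0.26 to 10.67 ± 0.39 (2.32 ± 0.33). Ly6c2, a surface antigen of memory and effector lymphocytes, was 9.81, 9.54 and 9.96 against 12.36, 12.38 and 12.35, the tightest of the called genes in Type-1 cells (SD 0.02).

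Tbx21 was 5.72 ± 0.20 in Naive-like and 7.67 ± 0.27 in Type-1 cells (1.95 ± 0.29, adjusted p = 0.012), and Eomes, the related T-box factor, 5.95 ± 0.24 and 7.46 ± 0.51 (1.52 ± 0.27, adjusted p = 0.035). Runx3, another factor of cytotoxic lineages, was not called, at -0.54 ± 0.25. Cxcr3, the chemokine receptor typical of type 1 cells, rose by 1.93 ± 0.18, with SDs of 0.04 and 0.06. Tbx21 lost its call without Naive-like replicates 2 or 3 (adjusted p up to 0.069), and Eomes without any 1 array other than Type-1 replicate 2 or IELs replicate 1 (adjusted p up to 0.20).

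Of 21 measured type 1 genes of 24 listed, 9 were higher and none lower, beside 0.212% and 0.0721% of all genes, with a median of 1.52. In 14 the Type-1 arrays lay wholly above the Naive-like arrays, as in 6.33% of all genes. The count was 7 to 9 with single arrays left out, and among arrays lacking the date code it was 5. The type 1 list was likewise drawn up with earlier results known, so its counts are not independent evidence. Tnf (-0.22), Csf2 (0.33) and Hlx (0.10) were among the members that were not called, and Il12rb2 stood at 0.74. Some NK cell markers moved with these results. Ncr1 and Klrb1c were higher, 2 of 6 measured in the class for NK and innate lymphoid cells (0.212% over all genes). Kit, of the same class, differed by -0.57 ± 0.52 without a call. The log2 of the summed level of the class was 7.88 to 8.43 on the Naive-like and 8.83 to 9.63 on the Type-1 arrays. In the same list Itga2 differed by 2.01 ± 0.46 without a call. The T cell receptor chain genes Cd3d, Cd3e and Cd3g were at 11.10, 10.62 and 11.01 in Type-1 cells and differed by -0.05, -0.23 and -0.45. The part of admixed cells in the NK receptor and type 1 results was not tested.

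**Figure D3:**
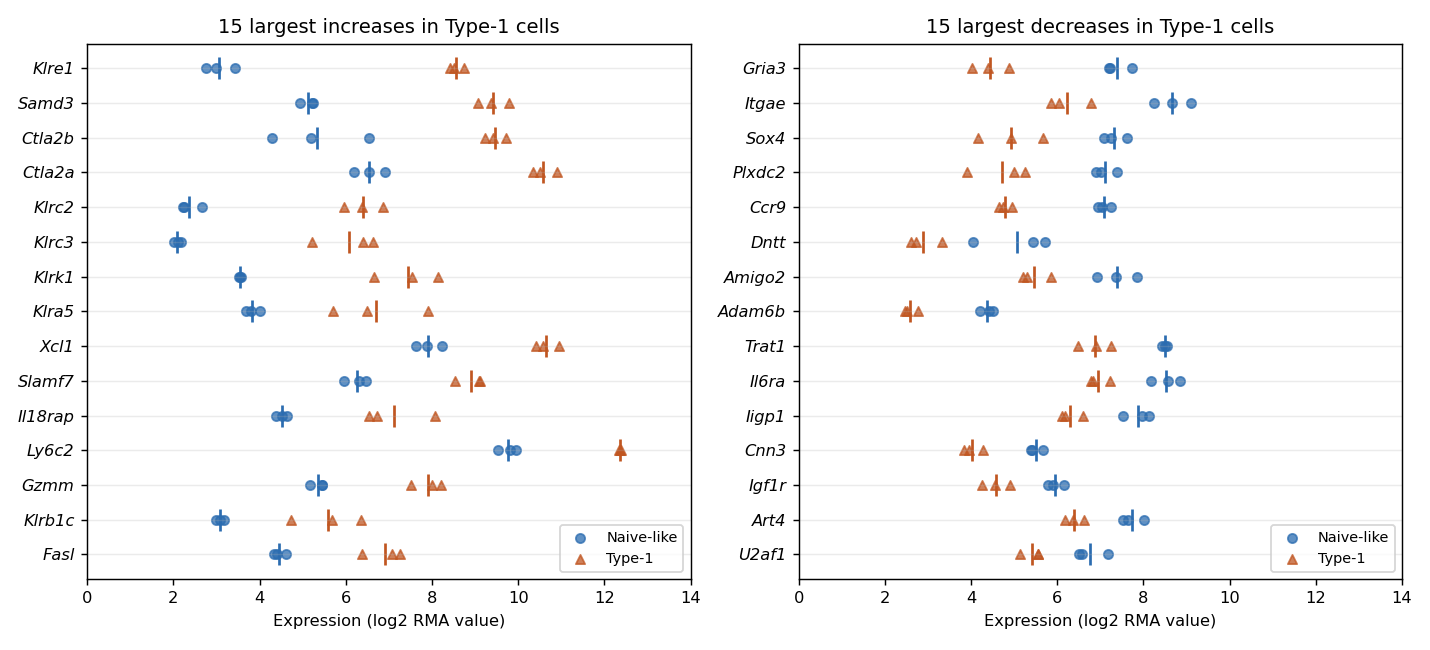
Expression (log2 RMA value, x axis) of the 15 genes with the largest increases (left) and the 15 with the largest decreases (right) among called genes. Each gene has 3 circles for the Naive-like arrays, 3 triangles for the Type-1 arrays, and a bar at each mean. No circle lies among the triangles in any gene, and the spread is widest for Dntt and Ctla2b in Naive-like cells and for Klra5 in Type-1 cells.

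Cytotoxic effector genes were divided. Gzmm, which encodes granzyme M, was 5.17, 5.45 and 5.45 in Naive-like cells and 8.01, 8.21 and 7.52 in Type-1 cells (2.56 ± 0.22, adjusted p = 0.00015). Fasl, the death ligand that engages Fas, was 4.40, 4.62 and 4.33 against 7.27, 7.08 and 6.37 (2.46 ± 0.26). These were the 2 higher members of 20 measured (0.212% over all genes), none was lower, and the median of the list was 0.34. Prf1, the pore-forming perforin, differed by 0.78 ± 0.27, Gzma by 0.41 ± 0.34 and Gzmb by 1.60 ± 0.36, with none called. For Gzmb the groups did not overlap, but the Naive-like arrays had an SD of 0.85. The granule genes Nkg7 and Ctsw were high in both subsets, at 10.7 and 10.6 in Naive-like cells, and differed by 0.47 and 0.87.

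Outside these programmes, Samd3, a gene of a SAM domain protein, was 5.24, 4.95 and 5.22 in Naive-like cells and 9.79, 9.37 and 9.08 in Type-1 cells. This difference, 4.28 ± 0.25, was the second largest of all called genes, and the IEL arrays stood at 4.84 on average. Ctla2a, which encodes an inhibitor of cysteine proteases, was 6.53, 6.20 and 6.90 against 10.91, 10.35 and 10.50 (4.04 ± 0.29). Its neighbour Ctla2b, a near copy, was 5.20, 4.28 and 6.53 against 9.72, 9.22 and 9.43 (4.12 ± 0.48). The Type-1 arrays were close together for both, while Naive-like replicate 3 was highest and replicate 2 lowest, and how far the paired genes share hybridization signal was not tested.

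Other pairs of called genes lay side by side in the RefSeq order, each pair higher in Type-1 cells: Heatr9 with Ccl5, and Cd244a with Slamf7, between which only Ly9 (0.13) was tested. Heatr9, named for its HEAT repeats, rose by 2.34 ± 0.29. St3gal6, a sialyltransferase, and Cldnd1, a claudin domain gene, rose by 1.53 ± 0.21 and 1.36 ± 0.23 with 4 tested genes between them, but Cldnd1 lost its call in 9 of 9 fits with 1 array left out (adjusted p up to 0.12).

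Further genes that were higher fall into several kinds. Signalling genes included Spry2, an inhibitor of receptor tyrosine kinase signalling (2.00 ± 0.33), the protein phosphatase gene Ppm1j (2.08 ± 0.27), the small GTPase gene Gem (1.54 ± 0.23) and Dennd4a, an exchange factor for Rab proteins (1.83 ± 0.30). Cell surface and membrane genes included Ms4a4c (1.89 ± 0.25), the water and glycerol channel gene Aqp9 (1.54 ± 0.22) and Anxa2, a membrane-binding annexin (1.32 ± 0.22). The motor protein gene Myo1f (1.53 ± 0.24), the histone and protein methyltransferase gene Smyd2 (1.75 ± 0.24), the antibacterial protein gene Pglyrp1 (1.61 ± 0.20) and the growth factor gene Bmp7 (1.38 ± 0.21) rose as well. Dmrta1 (1.72 ± 0.20), Ddx43 (1.61 ± 0.29), Rnf32 (1.47 ± 0.21), Btbd11 (1.18 ± 0.21) and 1700025G04Rik (2.03 ± 0.20) complete the genes that were higher. Many of these calls depended on single arrays. In the 9 fits with 1 array left out, Btbd11 and Ddx43 were lost in 7, with adjusted p up to 0.18 and 0.20. Anxa2 and Dennd4a were lost in 6, Spry2 in 5 and Myo1f in 4, with adjusted p up to 0.16, 0.13, 0.12 and 0.10. Bmp7 and Rnf32 were lost in 3, Gem in 2, and Aqp9 and Smyd2 in 1, with adjusted p up to 0.099. Dmrta1 kept its call in all 9 but reached only 4.12 ± 0.26 in Type-1 cells, under the median of all genes.

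Among homing and adhesion genes, 2 of 29 measured were higher and 2 lower, beside 0.212% and 0.0721% of all genes, with a median of 0.22. Cd44, an adhesion receptor and memory marker, rose from 4.50 ± 0.29 to 6.66 ± 0.27 (2.16 ± 0.26). Gpr183, the oxysterol receptor that positions lymphocytes in lymphoid organs, rose from 4.96 ± 0.11 to 6.74 ± 0.41 (1.78 ± 0.22). Itgae, which encodes the integrin chain CD103 that binds E-cadherin, was 8.26, 8.65 and 9.10 in Naive-like cells and 6.05, 5.85 and 6.78 in Type-1 cells (-2.44 ± 0.30). Ccr9, the chemokine receptor for homing to the small intestine, was 7.26, 6.95 and 7.03 against 4.64, 4.95 and 4.74, tightly grouped within each subset (-2.30 ± 0.19, adjusted p = 0.00015). Ccr7 (-0.73 ± 0.29), S1pr1 (-0.70 ± 0.33) and S1pr4 (0.19 ± 0.18), which guide entry into and exit from lymph nodes, were not called. Without Type-1 replicate 1 the higher members numbered 4, and among arrays lacking the date code 0 were higher and 2 lower.

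The genes lower in Type-1 cells were led by Gria3, which encodes a subunit of AMPA glutamate receptors. It was 7.20, 7.22 and 7.74 in Naive-like cells and 4.40, 4.03 and 4.88 in Type-1 cells, fully apart at -2.95 ± 0.26 (adjusted p = 0.00015). Sox4, a transcription factor of immature lymphocytes, was 7.09, 7.62 and 7.23 against 4.17, 4.92 and 5.68 (-2.40 ± 0.34). Plxdc2, a transmembrane protein gene, was 7.01, 6.90 and 7.38 against 3.91, 5.25 and 4.99 (-2.38 ± 0.33). For both, Type-1 replicate 1 was the lowest array, and both calls were lost without Naive-like replicate 3, at adjusted p of 0.055 and 0.058.

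Dntt, which encodes the polymerase that adds nucleotides at receptor gene junctions, was 5.44, 4.03 and 5.71 in Naive-like cells and 2.62, 3.31 and 2.72 in Type-1 cells (-2.18 ± 0.37, adjusted p = 0.031). Naive-like replicate 2 was well below the other Naive-like arrays, and the call was lost in 7 of 9 fits with 1 array left out, all but those without Naive-like replicate 2 or Type-1 replicate 2 (adjusted p up to 0.18). Trat1, an adaptor that associates with the T cell receptor, was 8.55, 8.43 and 8.50 against 6.90, 6.48 and 7.25 (-1.62 ± 0.22). Igf1r, the receptor for insulin-like growth factor, was 5.91, 5.79 and 6.15 against 4.90, 4.25 and 4.56 (-1.38 ± 0.21), and was lost without Naive-like replicates 1 or 3 or Type-1 replicate 2 (adjusted p up to 0.093).

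With Ccr9, Gria3 and Plxdc2 these genes belong to a list for receptor rearrangement and thymic immaturity, of which 6 of 13 measured members were lower (0.0721% over all genes) and none higher, with a median of -0.96. That list was drawn up with some of these differences known, so its count is not independent evidence of a direction. It was 3 without Naive-like replicate 3, 4 without Naive-like replicate 1 and 2 among arrays lacking the date code. Rag2 (0.47 ± 0.23) and Cd24a (-0.04 ± 0.30) were not called and stood at 2.72 and 3.86 in Naive-like cells. Il7r, the receptor that sustains naive lymphocytes, was 0.77 ± 0.23 higher in Type-1 cells by value without a call.

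Amigo2, an adhesion molecule gene, was 7.36, 6.91 and 7.86 in Naive-like cells and 5.30, 5.20 and 5.86 in Type-1 cells (-1.93 ± 0.28). Adam6b, of the ADAM family, was 4.41, 4.50 and 4.21 against 2.50, 2.77 and 2.46 (-1.80 ± 0.20), at levels below the median of all genes in both subsets. Il6ra, the receptor for interleukin 6, was 8.57, 8.17 and 8.85 against 6.78, 6.82 and 7.21 (-1.59 ± 0.23), while its signalling partner Il6st differed by -0.77 without a call. Il6ra was the 1 called gene of 17 measured in the cytokine receptor list, beside 0.0721% of all genes called lower, and 0 passed without Naive-like replicate 3. The called receptor chains Il2rb and Il18rap stood in the type 1 list instead. Amigo2 and Il6ra were lost without Naive-like replicates 1 or 3, with adjusted p up to 0.058 and 0.063.

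Cnn3, an actin-binding calponin gene, was 5.40, 5.67 and 5.42 in Naive-like cells against 3.94, 3.83 and 4.27 in Type-1 cells (-1.48 ± 0.22). Art4, a member of the ADP-ribosyltransferase family, fell from 7.72 ± 0.25 to 6.39 ± 0.22 (-1.34 ± 0.21). U2af1, a splicing factor gene, was 6.57, 7.18 and 6.51 against 5.56, 5.56 and 5.12 (-1.34 ± 0.23). The arrays did not overlap in these genes, but each call was lost with several single arrays left out, in 4, 4 and 8 of 9 fits, with adjusted p up to 0.073, 0.099 and 0.12.

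Transcription factors of naive and stem-like T cells were mostly lower by sign, in 13 of 17 measured, with a median of -0.44, but Sox4 alone was called, and it was not called when its 2 array rows were averaged. Lef1, which marks naive T cells, was 9.27 ± 0.12 and 8.40 ± 0.32 (-0.87 ± 0.25), without overlap and without a call, and Bach2 differed by -0.44 ± 0.29. The Type-1 arrays lay wholly below the Naive-like arrays in 8 of the 17, beside 5.11% of all genes.

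**Figure D4:**
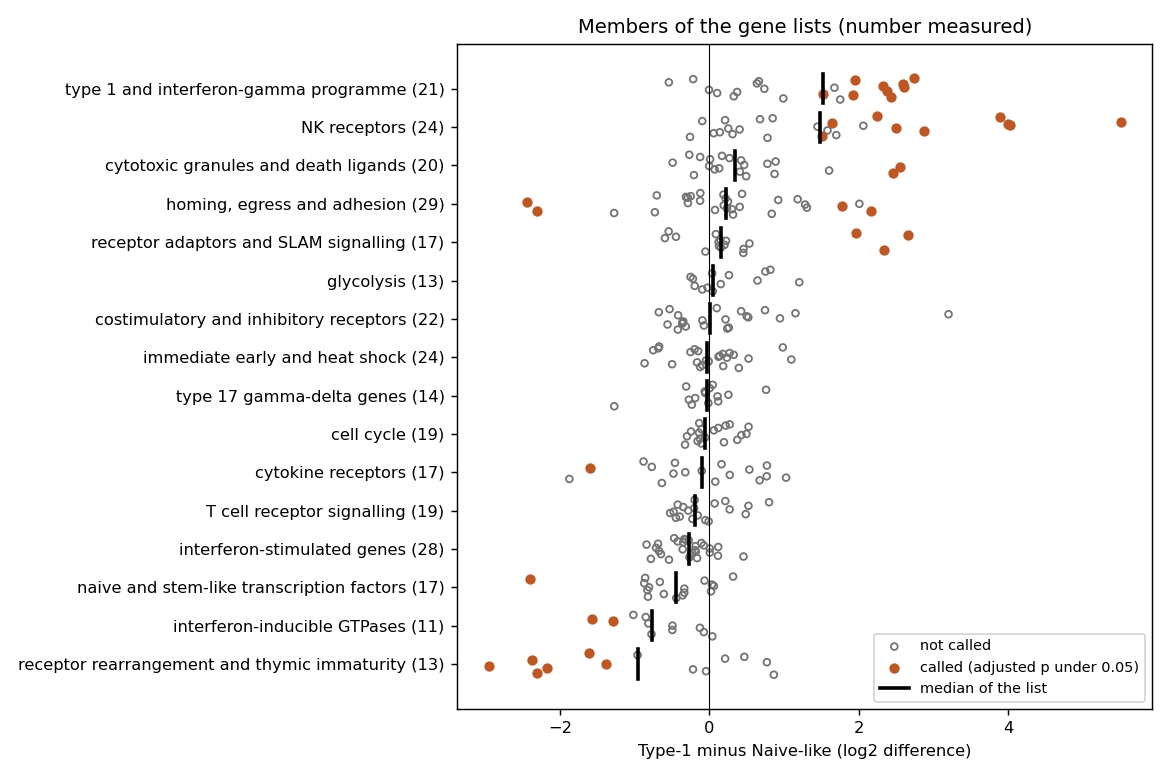
Differences between Type-1 and Naive-like cells (log2, x axis) for the measured members of 16 gene lists, ordered by the median of the list (black bar), with the number measured in brackets. Filled points were called and open points were not. The type 1 list (median 1.52) and the NK receptor list (median 1.48) lie at the top, and the interferon-inducible GTPase list (median -0.77) and the rearrangement and immaturity list (median -0.96) at the bottom.

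Of the interferon-inducible GTPases, which attack the membranes around intracellular microbes, Iigp1 and Igtp were lower. Iigp1 was 7.51, 8.13 and 7.97 in Naive-like cells and 6.12, 6.60 and 6.19 in Type-1 cells (-1.57 ± 0.25, adjusted p = 0.016). Igtp fell from 7.80 ± 0.17 to 6.52 ± 0.39 (-1.28 ± 0.22, adjusted p = 0.030). Of 11 measured members of 16 listed these 2 were lower (0.0721% over all genes) and none higher, the median was -0.77, and in 6 the Type-1 arrays lay wholly below, as in 5.11% of all genes. Irgm1 (-0.85 ± 0.24) and Irgm2 (-1.02 ± 0.30) were among those 6 without a call, as was Gbp4 (-0.77). The calls were sensitive to single arrays: 0 members passed without Naive-like replicates 2 or 3 or Type-1 replicate 1, or among arrays lacking the date code, and 1 passed without Naive-like replicate 1, Type-1 replicates 2 or 3, or IELs replicates 2 or 3.

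Of 28 measured genes stimulated by type I interferon, 23 were lower by sign, with a median of -0.27. None was called, beside 0.284% of all genes. Ifit1 was -0.65 ± 0.25, while Ifit2 and Ifit3 were -0.23 ± 0.48 and 0.01 ± 0.23. The interferon-γ receptor chain gene Ifngr2 was 7.35 ± 0.63 in Naive-like and 5.48 ± 0.51 in Type-1 cells (-1.87 ± 0.35), at an adjusted p of 0.055, and Ifngr1 differed by 0.67.

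Several groups had no called member in the main comparison, in which 0.284% of all genes were called. They were 22 costimulatory and inhibitory receptors (median 0.01), 19 T cell receptor signalling genes (-0.20), 19 cell cycle genes (-0.06), 24 immediate early and heat shock genes (-0.03), 14 type 17 γδ genes (-0.03) and 13 glycolysis genes (0.05), by measured members. In that order the Type-1 arrays lay wholly above the Naive-like arrays in 4, 3, 2, 2, 0 and 3 members, beside 6.33% of genes. They lay wholly below in 2, 4, 3, 4, 2 and 0 members, beside 5.11% of genes. Of the costimulatory receptors, Cd28, Cd27 and Icos differed by -0.07 ± 0.26, -0.32 ± 0.30 and 0.95 ± 0.30. Mki67, Top2a and Ccna2, which mark dividing cells, differed by 0.06 ± 0.36, 0.22 ± 0.25 and 0.37 ± 0.39. Rora, Sox13 and Maf, of the type 17 programme, differed by -0.31 ± 0.29, 0.05 ± 0.23 and 0.01 ± 0.21. Fos, Fosb and Jun differed by -0.16 ± 0.34, -0.01 ± 0.67 and 0.18 ± 0.35, and Fosb varied widely between arrays of both subsets (SD 1.17 and 1.49). The glucose transporter genes Slc2a1 and Slc2a3 and the hexokinase gene Hk1 differed by 0.04 ± 0.27, 0.75 ± 0.42 and -0.09 ± 0.23. Il2ra and Il15ra, from the cytokine receptor list, differed by -0.10 ± 0.21 and 0.27 ± 0.24.

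Of the 20 measured targets of the antibodies named in the labels, 3 were called, all higher (0.212% over all genes): Cxcr3, Klrb1c and Tbx21. Others that the labels list for the surface were Ptprc (0.07 ± 0.23), Cd4 (0.08 ± 0.21), Cd8a (-0.22 ± 0.44), Cd5 (-0.56 ± 0.25), Entpd1 (-0.09 ± 0.21), Nt5e (1.15 ± 0.34), Ccr6 (0.12 ± 0.20), Ctla4 (-0.35 ± 0.32), Pdcd1 (-0.68 ± 0.41), Tgfb1 (-0.32 ± 0.22) and Tigit (0.43 ± 0.32). Of the intracellular targets, Ikzf2, Foxp3 and Gata3 differed by -0.81 ± 0.29, -0.12 ± 0.21 and 0.02 ± 0.25. The remaining targets, Cd3e, Gzma and Gzmb, differed by -0.23 ± 0.31, 0.41 ± 0.34 and 1.60 ± 0.36.

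No marker of other cells outside the NK class was called, beside 0.284% of all genes. The B cell genes Ms4a1, Cd79a and Cd79b stood at 3.20, 3.94 and 6.18 in Type-1 cells and differed by 0.08, -0.10 and -0.17. The myeloid genes Lyz2, Csf1r and Cd14 differed by 0.85 ± 0.44, 0.12 ± 0.21 and -0.13 ± 0.21, the dendritic cell genes Itgax, Flt3 and Xcr1 by 0.92 ± 0.29, -0.23 ± 0.22 and -0.31 ± 0.32, and the plasma cell genes Jchain, Sdc1 and Tnfrsf17 by 0.22, -0.16 and 0.15. Of stromal and endothelial genes Pdpn and Col1a1 differed by 0.17 and -0.21, and Pecam1, which T cells express as well, by -1.08 ± 0.30. Epcam, Cdh1 and Krt8 of the epithelium differed by -0.35, 0.25 and 0.07. For the αβ T cell class, of which 5 of 8 markers were measured, the log2 of the summed level was 10.3 to 10.7 on the Naive-like and 8.43 to 8.91 on the Type-1 arrays. Its highest member by far was Cd8b1, the CD8 β chain gene, at 10.35 ± 0.15 against 8.21 ± 0.20 (-2.14 ± 0.47, adjusted p = 0.14). The Naive-like and Type-1 arrays did not overlap for Cd8b1. The IEL arrays, which entered the estimate of the spread, had an SD of 1.30 for this gene. The other members, Cd8a, Cd4, Foxp3 and Cd40lg, differed by -0.22, 0.08, -0.12 and 0.69, none called. The part of αβ T cells in the lower genes was not tested. The γδ label could not be checked here. Of 9 listed γδ T cell markers only 3, the CD3 genes, were measured, and αβ T cells express these as well. The γ and δ chain genes have no row with a single symbol and were not analysed.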

How the data were processed

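The title of each sample gave its subset. The authors deposited log2 values for 41345 rows on 9 arrays, with RMA in oligo named in the submitters' processing notes; the sources used here give no versions or filters. Rows with exactly 1 symbol in the platform annotation numbered 23521, and each of 22180 genes was represented by its row of highest mean; 1 called gene, Sox4, had more than 1 row. Differences were fitted over all 9 arrays by limma 3.58.1 (R 4.3.3; a mean for each subset, lmFit, eBayes without trend, two-sided; 6 residual and 6.00 prior degrees of freedom), a step tested on simulated data. In the simulated data, 37.3% of changes of 1 log2 unit were recovered, 89.6% of those of 2 and 98.5% of those of 3, with 9 false calls. Most 2-fold changes were thus missed there. Precision is limited by the few arrays, with a typical (median) standard error of 0.24. The 17 gene lists hold 340 genes, of which 309 were measured. The members and lists were chosen with earlier results of these data known. Named were all called protein-coding genes (the 15 largest in each direction with values per array, Art4 with means), called and first 3 measured list members, antibody targets and the first 3 measured markers of each of 10 classes; Klrc1, Lilrb4a, Cd8b1, Ifngr2 and other members without a call beyond these were chosen after their values were seen. The erythroid class had no measured marker. A summed marker level is the log2 of the sum of unlogged values on an array. Genes were called neighbours within 10 tested protein-coding genes in the RefSeq table of GRCm38.p6. Alternatives changed the filter on dim genes, normalization, spread model, array weights, rows, blocks and arrays used. Python 3.11.15, pandas 2.3.3 and matplotlib 3.10.9 were used.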

Additional observations from a re-analysis of the deposited data

Results flagged for a closer look

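Array rows without exactly 1 gene symbol were outside the comparison. When all 41345 rows were fitted together with limma, 35 rows passed at an adjusted p under 0.05, and 5 of these had no single symbol: 3 were higher in Type-1 than in Naive-like cells and 2 lower, with differences from -2.69 to 3.43. Of the 5 rows 1 carries several symbols and the others carry none here, so no gene is named for them. The 35 rows are fewer than the 63 genes called in the main comparison and the 64 rows called when all rows with 1 symbol were fitted. The calls thus also depend on which rows enter the fit, and the cause was not tested.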

How the results depend on the processing

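No called gene changed direction in any of the 22 alternatives fitted across genes. Of the 63 called genes, 19 kept their call in every alternative that tested them, and 33 kept it with each single array left out. The filter on dim genes removed Adam6b, Dmrta1, Dntt, Klrc2 and Klrc3, so these were tested in 21 alternatives. Klrc2 and Klrc3 are among the 19. The main comparison gave 63 calls, 47 higher and 16 lower. With the replicate number of the titles as a block (replicate block), 81 genes passed, and the 25 lower ones were over 1.5 times the main count. The same-numbered Type-1 and Naive-like arrays deviated together at correlations of 0.014, 0.12 and 0.38. Arrays of unlike number did so at -0.29 to 0.21. With so few arrays these values do not settle whether the numbers pair the samples. With neighbouring numbers in the descriptions as a block 28 were lower, again over 1.5 times, while a term for the date code gave 76 calls, within 1.5 times. Within the 6 arrays without the date code 20 passed, 16 higher and 4 lower. With single arrays left out, the called genes ranged from 34 (without Naive-like replicate 3) to 87 (without Type-1 replicate 3), the higher ones from 29 to 52 and the lower ones from 5 to 46. Without Type-1 replicate 3 and IELs replicate 1, the Type-1 and IEL arrays of lowest weight, chosen after seeing the data, 110 passed and 64 were lower. The fits with fewer arrays have fewer degrees of freedom; otherwise the cause was not tested. Genes that were not called changed sign near 0: with array weights Cd24a (0.18), Fosb (0.041), Ifit3 (-0.10), Krt8 (-0.0023) and Mki67 (-0.055); with the mean of a gene's rows Cd24a (0.11) and Slc2a1 (-0.077); within the arrays without the date code Cd24a (0.19), Cd28 (0.042), Cd3d (0.080), Cd79b (0.18), Cdh1 (-0.021), Ifit3 (-0.0058), Krt8 (-0.100), Mki67 (-0.010), Ptprc (-0.099) and Slc2a1 (-0.070). Without the 2 arrays of lowest weight these were Cd24a (0.0064), Cd79b (0.013), Foxp3 (0.031), Gata3 (-0.020), Ptprc (-0.067), Slc2a1 (-0.11) and Xcr1 (0.021). After quantile normalization these were Cd28 (0.016), Fosb (0.036), Ms4a1 (-0.0037) and Ptprc (-0.018), after cyclic loess Cd4 (-0.0019), Fosb (0.085), Il2ra (0.0041), Maf (-0.033) and Ms4a1 (-0.0070), and with array medians subtracted Gata3 (-0.022), Ifit3 (-0.038), Maf (-0.039) and Slc2a1 (-0.0064). With single arrays left out the ranges that crossed 0 were Cd14 from -0.28 to 0.044, Cd24a from -0.36 to 0.14, Cd28 from -0.21 to 0.12, Cd3d from -0.24 to 0.10, Cd79a from -0.33 to 0.081, Cd79b from -0.33 to 0.013, Cd8a from -0.63 to 0.29, Entpd1 from -0.26 to 0.0071, Fos from -0.52 to 0.24, Fosb from -0.72 to 0.77, Foxp3 from -0.25 to 0.031, Gata3 from -0.077 to 0.17, Gzma from -0.0024 to 0.78, Hk1 from -0.23 to 0.14, Ifit2 from -0.64 to 0.43, Ifit3 from -0.12 to 0.18, Jun from -0.10 to 0.50, Krt8 from -0.12 to 0.17, Maf from -0.16 to 0.12, Mki67 from -0.053 to 0.23, Ms4a1 from -0.049 to 0.18, Pdpn from -0.0053 to 0.33, Ptprc from -0.067 to 0.22, Sdc1 from -0.36 to 0.039, Slc2a1 from -0.11 to 0.23, Sox13 from -0.10 to 0.16, Tnfrsf17 from -0.10 to 0.33 and Xcr1 from -0.61 to 0.021.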

Other observations

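Several genes had large differences and groups that did not overlap, but missed the threshold. They were chosen after their values were seen. Lilrb4a, an inhibitory receptor of the immunoglobulin superfamily, was 3.77, 4.24 and 5.52 in Naive-like cells and 8.29, 6.14 and 8.70 in Type-1 cells, a difference of 3.20 ± 0.61 (limma adjusted p = 0.067). Both groups were widely spread, and the IEL arrays lay above them at 9.79 on average. Tlr1, a receptor for bacterial lipopeptides, was 8.38, 9.08 and 9.31 against 6.75, 7.21 and 8.03 (-1.60 ± 0.33, adjusted p = 0.11). Cpm, a membrane carboxypeptidase gene, was 5.19, 5.76 and 5.73 against 3.37, 3.36 and 4.59 (-1.79 ± 0.36, adjusted p = 0.10). Type-1 replicate 3 was the Type-1 array nearest to the Naive-like arrays for Tlr1 and Cpm.

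Crtam, an adhesion receptor of activated cytotoxic cells, was 5.91, 5.81 and 6.59 in Naive-like cells against 8.25, 7.06 and 8.10 in Type-1 cells (1.70 ± 0.33, adjusted p = 0.066). Ccl3, an inflammatory chemokine gene, was 4.66, 3.42 and 4.78 against 6.38, 5.53 and 6.20 (1.75 ± 0.36, adjusted p = 0.10). For both, Type-1 replicate 2 was the lowest of its group and still above every Naive-like array.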
